A study of Mus musculus with 18 samples.

Results

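The comparison described here is brown fat of adult mice whose mothers ate a fish oil diet against brown fat of adult mice whose mothers ate a control diet. It comprises 6 of the 18 RNA-seq libraries of a series on maternal fish oil and offspring brown fat, chosen by their sample titles. Fetal, weaned and adult brown fat was sequenced with 3 libraries per diet and age. All dams were C57BL/6 females that ate their diet through pregnancy and lactation, and interscapular brown fat of the offspring was frozen for RNA. The adult control group was the maternal control diet followed by high fat feeding, and the adult fish oil group was the maternal fish oil diet followed by high fat feeding. Both adult groups were C57BL/6 mice, were 15 weeks old at collection and had eaten high fat for 8 weeks, so no adult group on a standard diet enters the comparison. The labels describe no genetic change and do not say whether the libraries of a group came from separate litters or pooled animals. The p-values below therefore measure the spread between libraries. In the fit of all libraries that spread was estimated over all 18, fetal and weaned libraries included. A fit with no filter on low counts, cited below, used the same libraries, so its p-values are no independent support. Genes of skeletal muscle were set apart as a list of 177 symbols, and the other genes are described in depth.

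Brown fat burns fatty acids to make heat through the uncoupling protein Ucp1 in its mitochondria. It also builds fatty acids from glucose. The transcription factor SREBP-1c and the carbohydrate sensor ChREBP drive the enzymes of that pathway, and long polyunsaturated fatty acids of the kind found in fish oil are known to lower SREBP-1c activity. The gene Scd1 encodes the desaturase that makes monounsaturated fatty acids, and Fasn encodes fatty acid synthase. The interscapular depot lies against back muscles, and brown adipocytes and skeletal muscle arise from a related precursor population.

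The deposited tables gave whole-number read counts for 55416 genes, taken here from their forward column. The 6 adult libraries held 7889595 to 9663600 counts, of which the mitochondrial ribosomal RNA mt-Rnr2 took 43.4 to 46.8%. A count of 3, taken as the detection floor, corresponded to 0.314 to 0.433 CPM, which are counts scaled to a common library total. Levels are given as CPM after edgeR's TMM scaling. All 6 libraries carried the Y-linked transcript Ddx3y at 62.9 to 75.8 CPM. Ucp1 was at 3412, 3119 and 2880 CPM in the control libraries and at 2729, 3509 and 3210 CPM in the fish oil libraries, so the defining marker of brown fat was abundant in every library.

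A pair of libraries stood apart from the rest across the diet groups. Cyp2e1, a cytochrome P450 of ethanol and ketone metabolism, was at 49.7 CPM in control library 3 and 263 CPM in fish oil library 2, against 3.25 to 17.5 CPM in the other adult libraries. Gsta3, a glutathione transferase, was at 8.83 and 37.5 CPM in the same pair against 0.343 to 3.25 CPM. Over all tested genes, the deviations of that pair from their group means had a correlation across genes of 0.51, whereas libraries with the same number in their titles had correlations of -0.49 to 0.05. The library titled as fish oil 2 carries the number 3 in its source name, as fish oil library 3 does. Numbers are taken here from the titles. By the source name, control library 3 and fish oil library 2 would share a number.

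Adult fish oil libraries held more skeletal muscle RNA than control libraries, and most genes that passed the test belonged to that change. The test was edgeR's quasi-likelihood test fitted on all 18 libraries, with Benjamini-Hochberg adjustment over 14366 genes and a threshold of 0.05 on the adjusted p. Of those genes, 0.988% passed, 139 higher (0.968%) and 3 lower (0.0209%) with fish oil. Of 139 tested genes of the muscle list, 88 rose and 0 fell, with a median log2 fold change of 4.09 against 0.01 over all tested genes. Without both control library 3 and fish oil library 2, 60 muscle genes rose. The summed muscle list took 0.0852, 0.0696 and 0.100% of counts in control libraries 1 to 3. It took 1.50, 1.13 and 0.309% in fish oil libraries 1 to 3. The groups did not overlap, and fish oil library 3 held the least muscle RNA of its group.

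Mylk4, Pygm and Ldb3 were among the 6 muscle genes with the smallest adjusted p-values of those with at least 10 control counts. Mylk4, a myosin light chain kinase, was at 0.895, 0.105 and 1.43 CPM in the control libraries and at 46.1, 45.1 and 16.5 CPM in the fish oil libraries. Pygm, the glycogen phosphorylase of muscle, was at 2.13, 0.314 and 3.94 CPM and at 96.0, 77.8 and 21.8 CPM. Ldb3, a Z-disc protein, was at 1.34, 0.628 and 1.31 CPM and at 30.7, 21.7 and 5.83 CPM. Each was higher in every fish oil library than in any control library, and each was lowest of the fish oil group in library 3. Tnnt1, the slow skeletal troponin T, had 0 counts in the control libraries and was at least 32.6-fold higher with fish oil, taking 3 counts over the control group as the floor. In fish oil library 3 it was at 0.343 CPM, at the floor of that library. Of the list's tested genes, 7 had a negative fold change, among them Fbp2, fructose bisphosphatase of muscle, at 13.6, 15.4 and 14.6 CPM in control and 9.86, 13.0 and 9.03 CPM in fish oil libraries (edgeR adjusted p = 0.859). In bulk tissue, more muscle fibres and more RNA per fibre cannot be told apart.

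**Figure D1:**
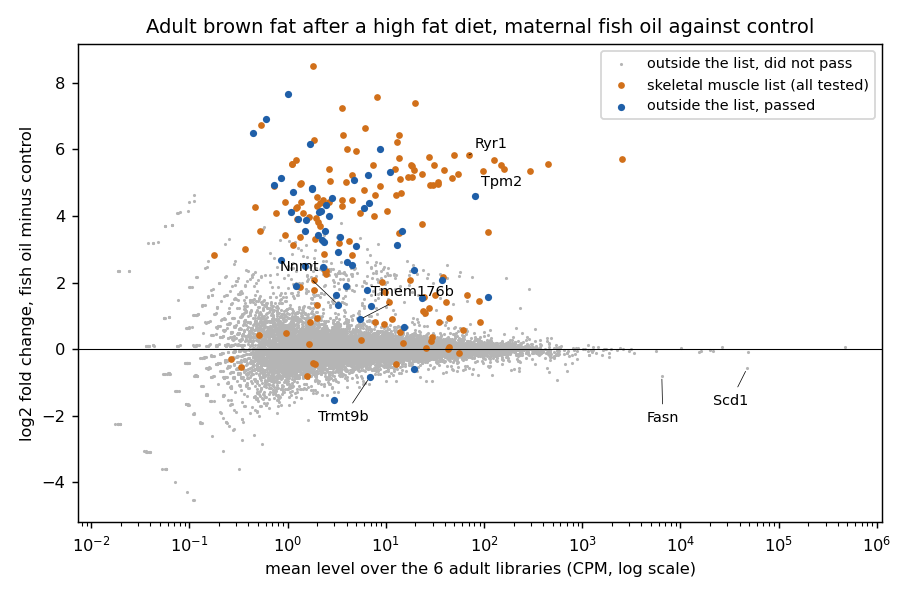
Each point is a tested gene, with its mean level over the 6 adult libraries (CPM, log axis) against its log2 fold change, fish oil minus control. Orange points are genes of the skeletal muscle list, blue points are the 54 other genes that passed, and grey points are the rest. The orange points spread upward to beyond 8, and only 3 blue points lie below 0.

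Outside the muscle list, 14227 genes were tested, and 51 rose (0.358%) and 3 fell (0.0211%). In 53 of these 54 genes the groups did not overlap, against 14.1% of all tested genes. The 54 were picked by a test on the same libraries, so this separation is no added support. At an unadjusted p under 0.05, 536 were higher (3.77%) and 326 lower (2.29%). The number that rose past the adjusted threshold was 31, 23, 26 and 32 without control library 1, control library 2, fish oil library 1 or fish oil library 2, 89 without fish oil library 3, and 20 without both control library 3 and fish oil library 2. Several of the genes that rose, the tropomyosins among them, are textbook genes of striated muscle that the list did not hold, and their number was not counted. Tpm2, the beta-tropomyosin of contractile filaments, was at 8.28, 3.35 and 7.52 CPM in the control libraries and at 211, 210 and 42.9 CPM in the fish oil libraries (log2 fold change 4.61, SE 0.522, edgeR adjusted p = 0.000395). Tpm1, the alpha-tropomyosin, was at 54.1, 51.6 and 59.6 CPM and at 200, 210 and 83.0 CPM (log2 fold change 1.57, SE 0.268, edgeR adjusted p = 0.00344). Both tropomyosins stood clear of the control range in every fish oil library, and for both the smallest value of the group was in library 3.

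Flnc, Nexn and Synm were among the other genes that rose. Flnc, a filamin of the muscle Z-disc, was at 2.01, 2.62 and 2.27 CPM in control and at 41.2, 32.2 and 7.78 CPM in fish oil libraries. Nexn, the actin-binding protein nexilin, was at 3.02, 1.99 and 2.98 CPM and at 29.5, 32.9 and 8.12 CPM. Synm, an intermediate filament protein that binds desmin, was at 13.3, 10.8 and 11.3 CPM and at 38.3, 43.9 and 21.5 CPM. Their log2 fold changes were 3.55, 3.14 and 1.55, and none overlapped between the groups. Also higher were Myo18b, an unconventional myosin of the sarcomere (log2 fold change 5.23), Sptb, beta-spectrin (4.25), Ank1, an ankyrin with a muscle isoform at the sarcoplasmic reticulum (2.93), and Hspb6, a small heat shock protein of muscle (2.36).

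Genes for protein synthesis, protein turnover and metabolism were also among those that rose. Eef1a2, the translation elongation factor isoform of muscle and neurons, was at 0.559, 0.105 and 0.954 CPM in control and 31.5, 25.3 and 7.20 CPM in fish oil libraries. Rpl3l, a ribosomal protein paralogue expressed in striated muscle, was at 0.335, 0.105 and 0.239 CPM and at 8.29, 7.07 and 1.03 CPM. Usp13, a deubiquitinase, was at 0.783, 0.105 and 0.954 CPM and at 18.2, 16.0 and 4.00 CPM. Control levels of these 3 genes were near or below the floor in at least 1 library, and their fish oil levels had the order of the muscle list. Padi2, a peptidylarginine deiminase, Fbxo40, an F-box protein of muscle, Akap6, an anchoring protein for protein kinase A, Shox2, a homeobox factor, and Slc25a12, the aspartate and glutamate carrier of mitochondria, rose with log2 fold changes of 5.07, 3.36, 3.09, 2.60 and 2.52. Tmem233, Klhl38 and Bves had 0 control counts and were at least 18.2-fold, 10.9-fold and 8.06-fold higher, taking 3 counts over the control group as the floor. In fish oil library 3, Klhl38 was at 0.343 CPM and Bves at 0.229 CPM, at or below the floor of that library. None of these genes was tested with the adult libraries fitted alone. Of the 51 genes, 35 had fewer than 30 counts over the 3 control libraries together.

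Tbx15 was the gene of the brown fat and thermogenesis list that rose. It encodes a T-box factor found in brown adipocytes and in glycolytic muscle fibres. Its level was 1.34, 1.57 and 2.15 CPM in control and 8.63, 7.22 and 2.97 CPM in fish oil libraries (log2 fold change 1.89, SE 0.347, edgeR adjusted p = 0.00708). The groups did not overlap, and fish oil library 3 lay closest to the controls, as for the muscle list. The edgeR adjusted p was 0.0691, 0.0648 and 0.0780 without control library 1, control library 2 or fish oil library 1, and 0.0670 without both control library 3 and fish oil library 2.

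The library order was examined for every gene that rose. Fish oil library 3 had the lowest value of its group in 88 of 88 muscle genes that rose and in 47 of the 51 others, against 32.7% of all tested genes and 38.5% of the genes outside the muscle list whose groups did not overlap higher. The rise in fish oil library 3 was also expressed as a percentage of the mean rise in libraries 1 and 2, a description chosen after the data were seen. Among the 88 muscle genes that percentage had a median of 19.6 and a range of 4.40 to 37.7. Among the 51 others the median was 21.9, and 43 of them lay within the muscle range. The 8 above it included Clip4 at 45.4%, Prr33 at 53.1%, Ttll7 at 53.7%, Igdcc4 at 78.9%, Mfsd10 at 88.9%, Tmem176b at 100% and Nnmt at 140%. Control levels of Prr33, Mfsd10 and Clip4 were below 0.5 CPM, so their percentages rest on few counts.

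**Figure D2:**
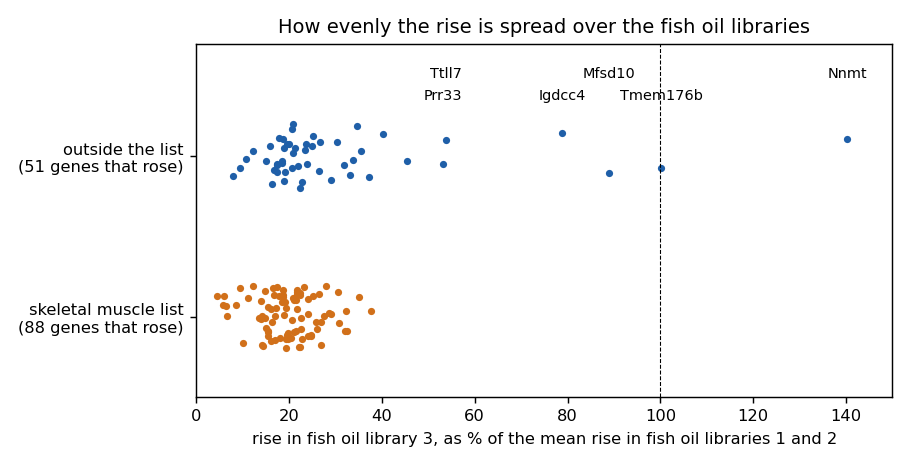
Each point is a gene that rose in adult fish oil libraries, placed by its rise in fish oil library 3 as a percentage of its mean rise in libraries 1 and 2, with the vertical scatter for visibility only. The 88 genes of the muscle list lie between 4.40 and 37.7%, and most of the 51 other genes lie in the same span. Names mark the genes above 50%, with Tmem176b at the dashed line of equal rise and Nnmt beyond it.

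Nnmt and Tmem176b rose to a similar level in all fish oil libraries. Nnmt, which methylates nicotinamide and so draws on both methyl donors and NAD precursors, was at 1.23, 1.99 and 2.39 CPM in control and at 4.26, 4.48 and 5.37 CPM in fish oil libraries. Its log2 fold change was 1.33 (SE 0.295, edgeR adjusted p = 0.0345), and the highest value was in fish oil library 3. Tmem176b, a membrane protein known from dendritic cells and other immune cells, was at 2.80, 4.08 and 4.53 CPM and at 5.94, 8.23 and 7.09 CPM (log2 fold change 0.89, SE 0.206, edgeR adjusted p = 0.0470). Neither gene overlapped between the groups. Both had been picked out for their library order after their values were seen. The edgeR adjusted p of Nnmt rose to between 0.0885 and 0.254 without control library 1, control library 2 or any 1 fish oil library, and that of Tmem176b to between 0.0569 and 0.320 without any 1 of the 6 libraries. Without both control library 3 and fish oil library 2 the values were 0.102 and 0.219. The macrophage and inflammation list, measured beside them, had 0 of 26 tested genes past the threshold in either direction by edgeR, DESeq2 or limma-voom, 1 higher and 1 lower at an unadjusted p under 0.05, and a median log2 fold change of 0.24. With no filter on low counts, 1 gene of that list rose by edgeR, in a fit in which 354 of 30567 genes rose outside the muscle list.

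The genes that fell included Trmt9b and Gm37531. Trmt9b, a member of a tRNA methyltransferase family, was at 8.83, 9.74 and 7.75 CPM in control and at 4.59, 5.92 and 4.23 CPM in fish oil libraries (log2 fold change -0.85, SE 0.173, edgeR adjusted p = 0.0177). Gm37531, a predicted gene outside the naming rule and named because only 3 genes fell, was at 5.14, 3.98 and 4.06 CPM and at 1.34, 1.59 and 1.60 CPM (log2 fold change -1.54, SE 0.336, edgeR adjusted p = 0.0306). The fish oil libraries of both genes lay below every control library. With the 6 adult libraries fitted alone, the edgeR adjusted p was 0.148 for Trmt9b and 0.0331 for Gm37531. With all ages fitted, the call of Trmt9b was lost without control library 1 (edgeR adjusted p = 0.0684), control library 2 (0.116), fish oil library 1 (0.117) or fish oil library 3 (0.0985), and that of Gm37531 without any 1 library (0.0684 to 0.192). Without both control library 3 and fish oil library 2, 1 gene fell outside the muscle list. In that fit the edgeR adjusted p was 0.0224 for Trmt9b and 0.188 for Gm37531.

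Several genes of the circadian clock had values outside the control range without passing in the fit of all libraries. Nr1d1 and Nr1d2 encode the REV-ERB repressors. Nr1d2 was at 18.2, 16.2 and 22.0 CPM in control and at 28.2, 34.7 and 29.2 CPM in fish oil libraries (log2 fold change 0.71, SE 0.257, edgeR adjusted p = 0.481). Nr1d1 was at 17.0, 21.4 and 22.2 CPM and at 29.0, 38.4 and 30.6 CPM (log2 fold change 0.69, SE 0.31, edgeR adjusted p = 0.681). Both REV-ERB genes were above every control library in all fish oil libraries. Per1, a repressor of the feedback loop, was at 16.7, 14.0 and 14.4 CPM and at 11.7, 5.92 and 8.69 CPM, and its partner Cry1 was at 6.37, 6.91 and 6.44 CPM and at 4.48, 5.05 and 4.00 CPM. Both lay below every control library, with edgeR adjusted p-values of 0.511 and 0.577. The core activators Clock and Arntl had log2 fold changes of 0.00 and 0.12. Nr1d2, Nr1d1 and Per1 passed with no filter on low counts, with edgeR adjusted p-values of 0.00277, 0.00536 and 0.000669, and Cry1 did not (0.550). The unfiltered fit passed 546 genes in all, against 142 with the filter. Of 21 tested clock genes, 3 did not overlap higher, against 7.48% of all tested genes, and 3 did not overlap lower, against 6.63%. The labels used here do not give the hour at which fat was taken, and its part in these values was not tested.

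A fit of the 6 adult libraries alone, which uses only the spread of these groups, passed 89 of 11800 genes (0.754%), 83 higher (0.703%) and 6 lower (0.0508%). Outside the muscle list 26 rose and 6 fell, and 22 of these 32 had also passed in the fit of all libraries. Leaving out any 1 control library or fish oil library 1 brought the calls of this fit to 0 by edgeR, with 827 to 987 genes at an unadjusted p under 0.05, so in this fit the genes named next each rest on all of those libraries.

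Dusp1, a phosphatase that switches off MAP kinases, rose in the adult libraries alone. It was at 18.8, 15.8 and 14.7 CPM in control and at 34.6, 30.3 and 34.4 CPM in fish oil libraries (log2 fold change 1.01, SE 0.123, edgeR adjusted p = 0.0304 in the adult libraries alone and 0.177 in all libraries). Noct, a rhythmic phosphatase acting on NADP(H), was at 42.9, 34.2 and 40.4 CPM and at 55.4, 63.0 and 69.0 CPM. Dhrs9, a dehydrogenase of retinol and steroids, was at 34.2, 23.5 and 32.8 CPM and at 49.2, 54.1 and 54.3 CPM. In these 3 genes every fish oil library exceeded every control library, and fish oil library 3 was not the lowest. Rragd, a GTPase that signals nutrients to mTORC1, was at 3.47, 3.87 and 3.46 CPM and at 9.52, 9.38 and 6.40 CPM, with the order of the muscle list.

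Genes that fell in the adult libraries alone included the main desaturase of the tissue. Scd1 was at 56671, 54651 and 60060 CPM in control and at 42364, 37065 and 36064 CPM in fish oil libraries, a fall of 32.6% (log2 fold change -0.57, SE 0.0942, edgeR adjusted p = 0.0341 in the adult libraries alone and 0.840 in all libraries). Zc3h6, a zinc finger protein, was at 18.0, 15.3 and 17.1 CPM and at 8.85, 7.80 and 9.26 CPM. Myo5b, a myosin that moves recycling endosomes, was at 50.5, 42.5 and 49.4 CPM and at 25.8, 30.8 and 30.3 CPM. The adult groups of all 3 genes were well apart. Carf, a calcium-responsive transcription factor, and Plxna1, a semaphorin receptor, fell with log2 fold changes of -0.73 and -0.52. None of these genes passed in the fit of all libraries, in which edgeR adjusted p-values were 0.847 for Zc3h6, 0.577 for Myo5b, 0.217 for Carf and 0.473 for Plxna1. Scd1 and these 4 genes passed with no filter on low counts, with edgeR adjusted p-values between 1.36e-05 and 0.0230, as did Dusp1 (3.95e-06), Noct (0.00303), Dhrs9 (0.000159) and Rragd (0.00483). The unfiltered fit rests on the same libraries and passed 546 genes in all, against 142 with the filter. The cause of that difference was not tested.

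**Figure D3:**
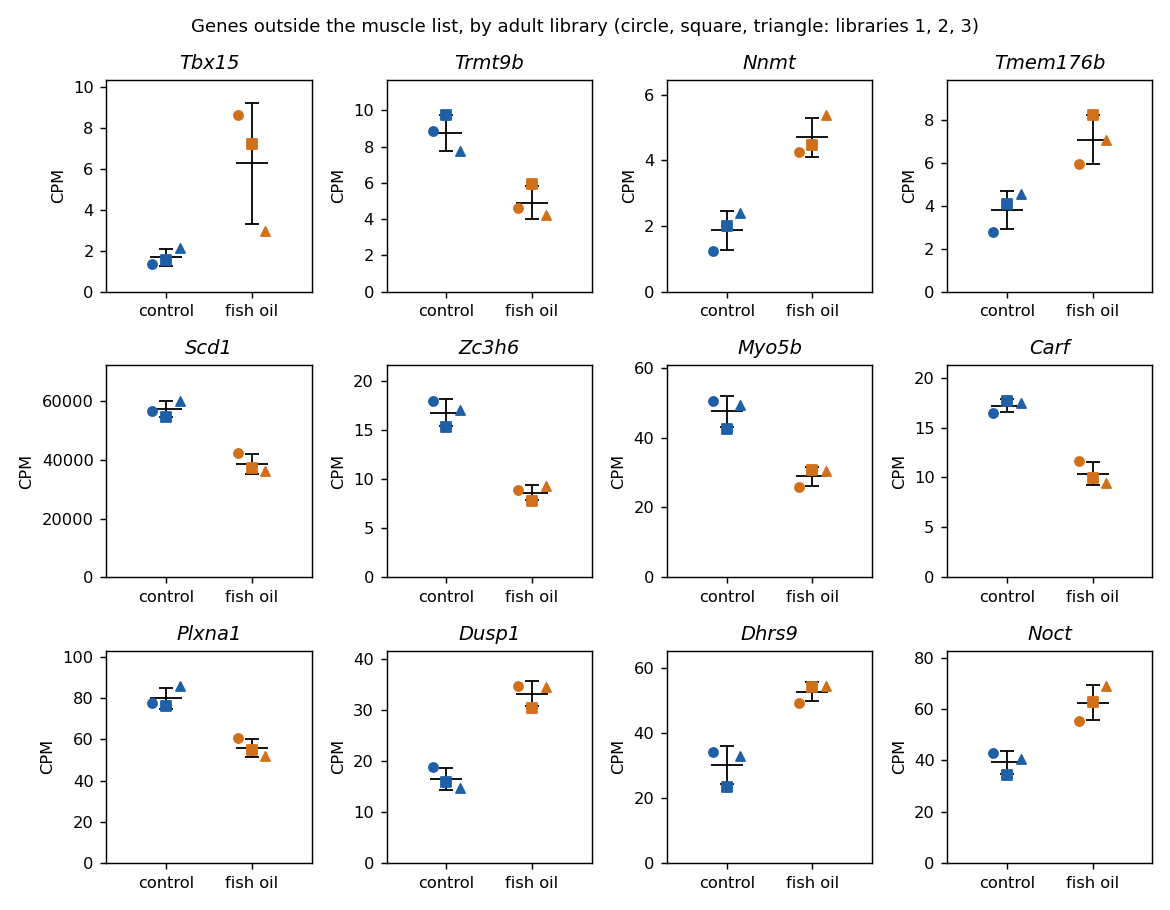
Levels (CPM, axis from 0) of 12 genes outside the muscle list in each adult library, with circles, squares and triangles for libraries 1, 2 and 3, and bars for the group mean and SD (n = 3). The first 4 genes passed in the fit of all libraries and the other 8 in the fit of the adult libraries alone. In every panel the control and fish oil points do not overlap.

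Genes of fatty acid synthesis had lower levels with fish oil in most cases, although none passed in the fit of all libraries with low-count genes removed. All 30 genes of the list were tested, and 0 passed in either direction by edgeR, DESeq2 or limma-voom, with 3 lower by edgeR at an unadjusted p under 0.05. The median log2 fold change was -0.41 against 0.01 over all tested genes, and 23 of 30 had a negative sign. In 13 of them every fish oil library lay below every control library, against 6.63% of all tested genes, and in 0 of them every fish oil library lay above. The summed list took 6.60 to 6.85% of counts in control libraries and 4.29 to 4.86% in fish oil libraries, with Scd1 the largest part. Without control library 3 and fish oil library 2 the median was -0.51. With no filter on low counts, 12 of the 30 genes fell by edgeR and 0 rose, in a fit in which 0.222% of 30567 genes fell. These were Acaca, Acly, Acsl5, Acss2, Elovl6, Fasn, Me1, Pnpla3, Scd1, Scd2, Slc25a1 and Thrsp. The fold changes of Fasn and Acly were -0.81 and -0.94 in that fit, with edgeR adjusted p-values of 1.05e-07 and 1.9e-09. The fold changes were close to those of the filtered fit, where the edgeR adjusted p-values were 0.507 and 0.946. The small p-values of the unfiltered fit thus do not reflect larger changes and are not read as a second result. The cause of the difference between the fits was not tested.

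Promoters of 4 of these lipid genes are shown because the CCAAT letters, bound by NF-Y, are a known partner of SREBP sites. Each window runs from 250 bases before to 50 bases after the RefSeq gene start (build GRCm38.p6), 5′ to 3′ along the gene's own strand, and capitals mark CCAAT on either strand, read as ATTGG where it lies on the opposite strand. Fasn lies at chr11:120824498-120824797 on the minus strand, Acly, the ATP citrate lyase that makes cytosolic acetyl-CoA, at chr11:100527951-100528250 on the minus strand, Acacb, an acetyl-CoA carboxylase, at chr5:114165268-114165567 on the plus strand, and Insig1, which holds SREBP in the endoplasmic reticulum, at chr5:28071162-28071461 on the plus strand.
Fasn: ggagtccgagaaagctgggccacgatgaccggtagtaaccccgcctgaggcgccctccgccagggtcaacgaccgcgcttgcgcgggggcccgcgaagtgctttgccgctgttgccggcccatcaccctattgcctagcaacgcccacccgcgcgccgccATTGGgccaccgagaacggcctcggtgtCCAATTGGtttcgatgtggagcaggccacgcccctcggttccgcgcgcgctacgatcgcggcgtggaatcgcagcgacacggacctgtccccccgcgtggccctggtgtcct
Acly: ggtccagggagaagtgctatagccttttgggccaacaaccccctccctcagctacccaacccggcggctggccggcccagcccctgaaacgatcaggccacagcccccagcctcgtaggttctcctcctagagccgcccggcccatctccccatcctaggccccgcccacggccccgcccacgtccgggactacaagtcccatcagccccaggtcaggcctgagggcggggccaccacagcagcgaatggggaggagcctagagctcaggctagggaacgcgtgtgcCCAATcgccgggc
Acacb: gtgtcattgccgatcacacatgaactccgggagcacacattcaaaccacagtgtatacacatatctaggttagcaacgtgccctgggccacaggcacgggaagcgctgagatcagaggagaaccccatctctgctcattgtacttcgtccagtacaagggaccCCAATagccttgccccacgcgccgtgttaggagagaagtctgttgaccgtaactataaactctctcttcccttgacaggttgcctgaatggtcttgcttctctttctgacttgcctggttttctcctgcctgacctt
Insig1: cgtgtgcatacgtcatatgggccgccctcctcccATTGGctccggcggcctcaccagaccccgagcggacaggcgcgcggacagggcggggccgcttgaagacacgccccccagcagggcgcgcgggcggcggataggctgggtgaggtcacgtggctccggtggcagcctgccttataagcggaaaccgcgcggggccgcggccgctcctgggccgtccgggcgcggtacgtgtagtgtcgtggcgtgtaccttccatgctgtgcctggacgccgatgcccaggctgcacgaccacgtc
Fasn held 3 matches, of which a pair overlapped on opposite strands, and the other 3 promoters held 1 each. The 20 fatty acid and cholesterol genes in which every fish oil library lay below every control library were picked by these data. Of them, 17 had a window, and 15 of these held CCAAT in at least 1 window. Over all genes with a window the share was 41.1%, and over all 32851 windows it was 37.4%. Acaca and Elovl6 had a window without CCAAT, and all 4 printed promoters are of genes that held it. The Acly match lies at base 37 after the gene start. No share is given for the other members of the lists, so a link of CCAAT to lower levels was not tested. The sterol element (TCACNCCAC), held by 1.24% of all windows, is not reported for these genes. The matches describe letters in these windows and do not show binding.

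The enzymes of the pathway from citrate to palmitate were described by library. Acly was at 719, 625 and 802 CPM in control and at 388, 523 and 228 CPM in fish oil libraries (log2 fold change -0.91, SE 0.78, edgeR adjusted p = 0.946). Acacb was at 970, 852 and 908 CPM and at 575, 781 and 679 CPM (log2 fold change -0.42, SE 0.149, edgeR adjusted p = 0.438). Fasn was at 8278, 7359 and 8932 CPM and at 4609, 6329 and 3260 CPM (log2 fold change -0.79, SE 0.293, edgeR adjusted p = 0.507). In all 3 the groups did not overlap, and fish oil library 2 was nearest to the controls. Elovl6, the elongase that turns palmitate into stearate, was at 931, 807 and 851 CPM and at 476, 750 and 416 CPM. Acaca, the other acetyl-CoA carboxylase, was at 556, 513 and 640 CPM and at 376, 461 and 234 CPM. Me1, malic enzyme, which supplies NADPH, was at 275, 243 and 292 CPM and at 184, 239 and 130 CPM. Each of these also fell short of the threshold in the filtered fit, with edgeR adjusted p-values from 0.515 to 0.925.

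The transcription factors of the pathway had smaller fold changes than the enzymes named above, a difference that was not tested. Srebf1, which encodes SREBP-1, was at 62.4, 52.9 and 50.5 CPM in control and at 45.6, 42.7 and 47.7 CPM in fish oil libraries (log2 fold change -0.28, SE 0.615, edgeR adjusted p = 0.994). Mlxipl, which encodes ChREBP, was at 69.4, 75.9 and 71.1 CPM and at 53.6, 69.2 and 53.6 CPM (log2 fold change -0.30, SE 0.325, edgeR adjusted p = 0.968). The fish oil values of both were below all control values, by small margins at the nearest libraries. Pnpla3, a lipase regulated with lipogenesis, was at 28.9, 28.7 and 28.8 CPM and at 19.5, 19.1 and 10.4 CPM. The genes of triglyceride assembly Dgat1, Dgat2, Gpam and Agpat2 were among the members whose groups overlapped.

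The order of the lipid genes over the fish oil libraries was set beside that of muscle RNA. Of the 13 genes without overlap, fish oil library 3 was the lowest of all 6 libraries in 10, against 31.8% of all tested genes without overlap that were lower with fish oil, and fish oil library 2 was the highest of the fish oil group in 9, against 37.0%. Muscle RNA was also lowest in fish oil library 3 among the fish oil libraries, and its part in the lipid values was not tested. Of the 30 list genes, 20, 16 and 22 lay below every control library in fish oil libraries 1, 2 and 3, against 26.8, 27.8 and 25.2% of all tested genes. The mean log2 CPM of the list was 6.47, 6.39 and 6.53 in control and 6.07, 6.37 and 5.87 in fish oil libraries, so library 2 was only just below the lowest control.

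Cholesterol synthesis genes had the same direction in most cases, with a smaller median. The mean log2 CPM of the list was 3.30, 3.146 and 3.389 in control and 2.865, 3.219 and 2.725 in fish oil libraries. The list means thus overlapped, with fish oil library 2 above control library 2. Of 26 tested, 0 passed by edgeR or limma-voom and 1, Insig1, fell by DESeq2, with 4 lower at an unadjusted p under 0.05 by edgeR. The median log2 fold change was -0.31, 22 were negative, and 7 did not overlap lower, against 6.63% of all tested genes. Insig1 was at 104, 85.8 and 95.3 CPM in control and at 52.9, 71.3 and 46.1 CPM in fish oil libraries (log2 fold change -0.74, SE 0.201, edgeR adjusted p = 0.134, 0.0476 without fish oil library 2, and 8.56e-05 with no filter on low counts). Sqle, squalene epoxidase, was at 3.58, 3.35 and 4.53 CPM and at 2.24, 2.17 and 1.60 CPM (log2 fold change -0.93, SE 0.354, edgeR adjusted p = 0.526). Cyp51, lanosterol demethylase, was at 21.4, 13.4 and 14.8 CPM and at 11.2, 12.4 and 10.9 CPM (log2 fold change -0.52, SE 0.228, edgeR adjusted p = 0.652). The groups of all 3 genes were separate, narrowly so for Cyp51.

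**Figure D4:**
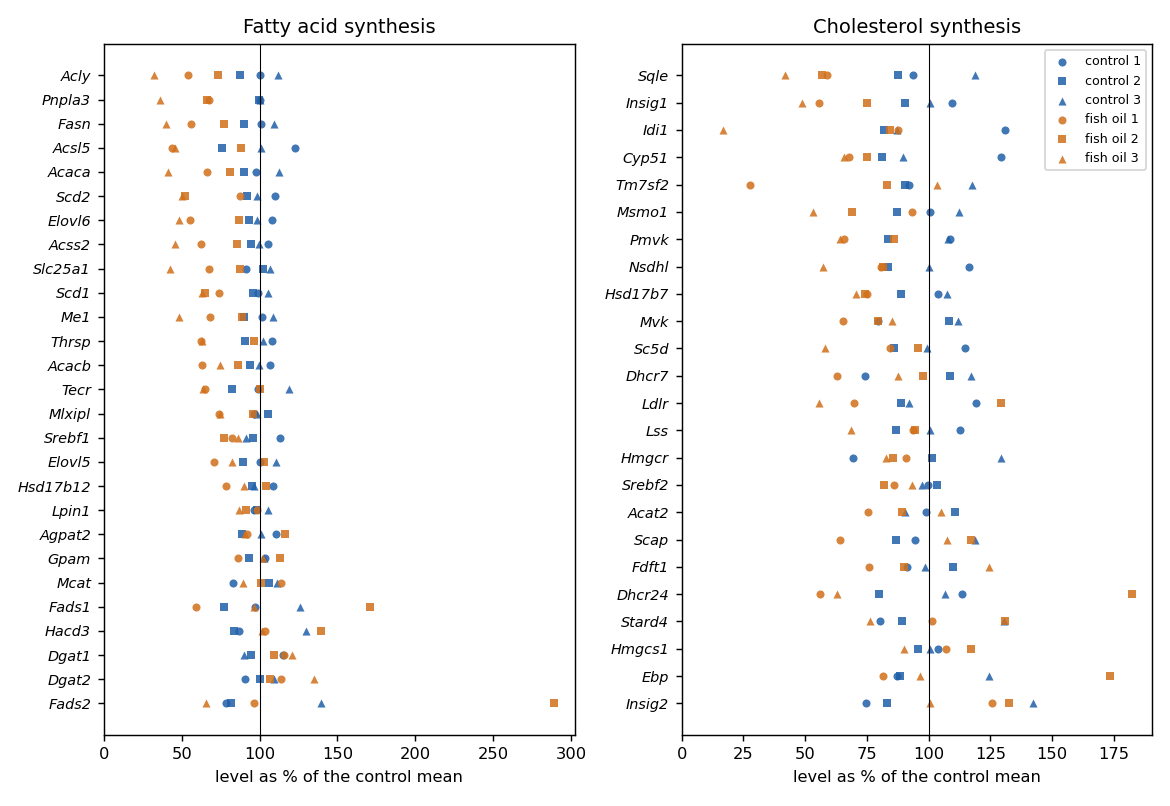
Levels of fatty acid synthesis genes (left) and cholesterol synthesis genes (right) in each adult library as a percentage of the control mean, for members at 2 CPM or more in control, sorted by the fish oil mean. Blue marks control and orange fish oil libraries, with circles, squares and triangles for libraries 1, 2 and 3. For Fasn, Acly and Insig1 all orange points lie left of the blue ones, and the orange square, fish oil library 2, lies nearest to 100%.

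The lists of glucose use and lipid breakdown had smaller medians than the lists of fatty acid and cholesterol synthesis. Of 26 tested genes of glucose uptake and glycolysis, 0 passed by edgeR, DESeq2 or limma-voom and 0 had an unadjusted p under 0.05 by edgeR, the median log2 fold change was -0.14, and 7 did not overlap lower, against 6.63% of all tested genes. Pkm, pyruvate kinase, was at 386, 384 and 376 CPM in control and at 262, 338 and 244 CPM in fish oil libraries (log2 fold change -0.44, SE 0.237, edgeR adjusted p = 0.805). Aldoa, aldolase, which muscle also expresses strongly, was at 947, 976 and 1025 CPM and at 783, 895 and 730 CPM. Of 19 tested genes of lipolysis and the lipid droplet, 0 passed in the fit of all libraries, and the median log2 fold change was -0.06. In that list 5 did not overlap lower, against 6.63% of all tested genes, and 1 did not overlap higher, against 7.48%. G0s2, an inhibitor of adipose triglyceride lipase, was at 337, 272 and 225 CPM and at 167, 198 and 164 CPM (log2 fold change -0.66, SE 0.46, edgeR adjusted p = 0.903, and 0.000215 with no filter on low counts). None of Pkm, Aldoa and G0s2 overlapped between groups, and fish oil library 2 was the nearest to the controls in each.

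The thermogenic and oxidative programme showed little difference. The median log2 fold change was 0.03 over 34 brown fat and thermogenesis genes, 0.01 over 28 fatty acid oxidation genes, 0.00 over 51 nuclear genes of oxidative phosphorylation and -0.04 over 22 genes of the tricarboxylic acid cycle. Beside Tbx15, 0 genes of these 4 lists passed by edgeR, DESeq2 or limma-voom, and edgeR gave 3 genes including Tbx15 an unadjusted p under 0.05, all higher. Ppargc1a, the coactivator of mitochondrial biogenesis, was at 110, 79.4 and 87.2 CPM in control and at 110, 104 and 201 CPM in fish oil libraries (log2 fold change 0.59, SE 0.255, edgeR adjusted p = 0.654). Dio2, the deiodinase that makes active thyroid hormone, was at 77.6, 30.7 and 52.1 CPM and at 58.0, 64.4 and 146 CPM (log2 fold change 0.74, SE 0.664, edgeR adjusted p = 0.957). Both were highest in fish oil library 3 and overlapped between groups. With no filter on low counts, 4 genes of the brown fat and thermogenesis list rose, Tbx15, Ppargc1a and Dio2 among them, and Elovl3, a fatty acid elongase, fell. Of the 30567 genes tested without the filter, 354 rose outside the muscle list and 0.222% fell. The edgeR adjusted p was 0.00529 for Ppargc1a and 5.86e-05 for Dio2 in that fit. It also gave 1 higher and 2 lower genes of fatty acid oxidation and 0 of the other 2 lists. Genes shared by brown fat and skeletal muscle, 20 of them tested, had 0 past the threshold by edgeR, DESeq2 or limma-voom, 0 at an unadjusted p under 0.05 by edgeR and a median of 0.04.

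Lists of stress, histone modifiers and other cell types held no further gene that passed in the fit of all libraries beside Tpm2 and Ube2c. Hspa5, the main chaperone of the endoplasmic reticulum, was at 163, 171 and 182 CPM in control and at 200, 257 and 206 CPM in fish oil libraries (log2 fold change 0.36, SE 0.102, edgeR adjusted p = 0.177). Sirt3, the mitochondrial deacetylase, was at 18.2, 17.5 and 17.2 CPM and at 14.3, 11.6 and 8.69 CPM (log2 fold change -0.61, SE 0.163, edgeR adjusted p = 0.123), and it fell by DESeq2. Both were separate between groups. In the fibroblast and matrix list 29 of 33 tested genes had a positive sign with a median of 0.31, and Dcn, the matrix proteoglycan decorin, was at 46.7, 62.7 and 55.0 CPM and at 91.4, 74.4 and 71.9 CPM (edgeR adjusted p = 0.328). In the unfiltered fit 5 genes of that list rose, Dcn among them (edgeR adjusted p = 0.0329). That fit had 354 of 30567 genes higher outside the muscle list and 0.222% lower. In the erythroid list 11 of 13 had a negative sign with a median of -0.52, and 2 fell with no filter on low counts. The part of these cell types in the results above was not tested.

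**Figure D5:**
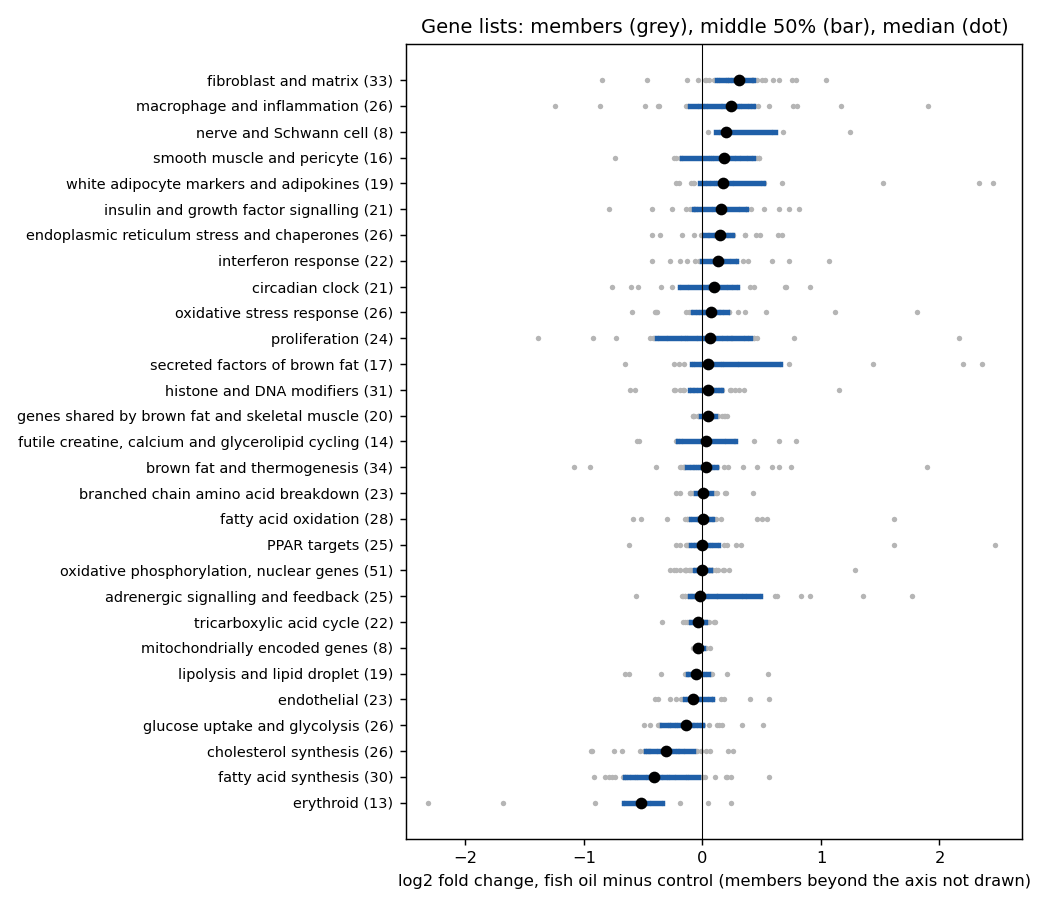
Log2 fold changes, fish oil minus control, of the tested members of each gene list (grey points), with the middle 50% as a bar, the median as a black dot and the number of tested genes in brackets. The muscle list, whose median was 4.09, is not drawn, nor are sex-linked genes and lists with fewer than 5 tested genes. Fatty acid synthesis, cholesterol synthesis and erythroid genes have the lowest medians, and most other lists lie near 0.

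Setting the mean of the muscle list as a covariate left no gene past the threshold by edgeR, with 590 genes at an unadjusted p under 0.05, of which 580 were outside the list. The median standard error of the diet term rose from 0.252 to 0.537 on the log2 scale in that fit. Muscle RNA and diet group did not overlap between the adult libraries, so the share of each in the genes that rose with the muscle list cannot be told apart. In that fit the median log2 fold change over all tested genes was 0.01. It was -0.72 for fatty acid synthesis, -0.87 for cholesterol synthesis and -0.62 for glucose uptake and glycolysis. The log2 fold change of Scd1 was -0.14 (SE 0.77) with the covariate and -0.57 without it. Diet and muscle RNA cannot be told apart in these values either.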

How the data were processed

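RNA-seq of interscapular brown fat gave 18 libraries, 3 for each of 6 groups of maternal diet and age, and the results concern the 6 adult libraries. The authors deposited, per the file headers, read counts per gene for each library in forward and unstranded columns. The submitters' processing notes name Bowtie 0.12.2 and STAR and the builds mm8 and mm9, without a role for each. No source used here says whether counting used strand. The forward counts, which summed to 99.04 to 99.36% of the unstranded ones in the adult libraries, were used as deposited. Symbols were found for 52083 of 55416 gene identifiers. Counts were filtered with filterByExpr, scaled by TMM and tested with the quasi-likelihood test of edgeR 4.0.16 in R 4.3.3 on all libraries, so that the 6 groups shared 1 estimate of spread. The test was checked on simulated data. Fold changes are log2, fish oil minus control, and p-values were adjusted by the Benjamini-Hochberg method over all tested genes. A list mean is a mean of log2 CPM with a prior count of 2.

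Genes were named by rule: a fixed set of brown fat genes, those outside the muscle list that fell, the 15 largest rises there at 5 CPM or more, the genes that passed in the adult libraries alone (all that fell, 10 that rose), the 3 smallest p-values of each list and 6 muscle genes. A further 30 genes were named after their values were seen. The members and lists were chosen with earlier results of these data known. Alternatives were other scalings and filters, DESeq2 1.42.0, limma-voom 3.58.1, the adult libraries alone, a replicate block, the unstranded column, the muscle mean as a covariate, removal of muscle or mitochondrial ribosomal genes, leaving out each library, and, chosen after seeing the data, leaving out control library 3 and fish oil library 2 together. Promoter windows are from RefSeq. Fetal and weaned libraries entered the fit and the tests of differences between ages, and are not otherwise analysed here. Some results are not reported here.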

Additional observations from a re-analysis of the deposited data

Results flagged for a closer look

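The diet effect differed between adult and younger libraries in several of the genes named above, by a test of the difference itself (edgeR interaction contrast, adjusted over all 14366 tested genes). Between adult and weaned libraries 36 genes (0.251%) passed. The adult minus weaned difference was -2.85 for Fasn and -1.85 for Insig1, both higher at weaning with fish oil. Over the fatty acid synthesis list the median diet effect was 0.87 at weaning and the median difference -1.45, with 2 of 30 genes passing, and over the cholesterol synthesis list these were 0.56 and -0.99, with 2 of 26 passing. Trmt9b differed between adult and fetal libraries by -1.49 (SE 0.234, edgeR adjusted p = 0.0208). The methyltransferase gene Setd7 differed by 1.24 in the same contrast, with a diet effect of 0.35 in adult and -0.89 in fetal libraries. The sex-linked transcript Xist was at 190, 329 and 1.96 CPM in fetal control libraries. It was at 159, 6.25 and 139 CPM in fetal fish oil libraries, against at most 2.01 CPM in the adults. The sex make-up of the fetal libraries thus differed from that of the adults, and its part in the adult minus fetal differences was not tested.

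The other genes that passed had a larger rise in the adults. Adult minus weaned differences were 7.11 for Rbm24, 5.27 for Padi2, 4.48 for Pygm, 4.39 for Tpm2, 4.31 for Pdlim3 and 3.92 for Shox2. They were 3.37 for Nexn, 3.30 for Akap6, 3.18 for Ank1, 2.76 for Ttll7 and 2.66 for Slc25a12. Adult minus fetal differences were 5.83 for Rbm24, 5.13 for Padi2, 5.04 for Ryr1, 4.68 for Mylk4, 4.57 for Myom2 and 4.26 for Pygm. They were 4.25 for Myo18b, 3.97 for Usp13, 3.77 for Tpm2 and 3.35 for Ldb3. Muscle genes took 0.0533 to 0.0871% of counts in weaned libraries, where the diets overlapped, against 0.0696 to 1.50% in the adults. For fetuses of control dams the share was 0.214 to 0.312%, and for those of dams fed fish oil 0.384 to 0.621%. A higher muscle share after maternal fish oil, without overlap, was thus present at the fetal age as well as in the adults. The part of muscle RNA in the adult minus weaned and adult minus fetal differences was not tested.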

How the results depend on the processing

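The number of genes past the threshold depended on the processing more than the direction of their changes did. In all libraries, 142 genes passed, of which 51 rose and 3 fell outside the muscle list and 88 rose within it. Without a filter on low counts these were 546, 354, 68 and 124, and with limma-voom 17, 4, 0 and 13. The adult libraries alone gave 89, 26, 6 and 57, and the muscle covariate 0 for each, with 590 genes at an unadjusted p under 0.05. DESeq2 gave 8 that fell outside the list. With muscle genes removed before scaling 38 passed, 1 of them lower. Without both control library 3 and fish oil library 2, 81 passed, with 20 higher and 1 lower outside the list. Leaving out each adult library in turn gave 89 to 197 in all, 23 to 89 higher and 1 to 3 lower outside the list and 65 to 107 muscle genes. In the adult libraries alone those ranges were 0 to 190, 0 to 77, 0 to 31 and 0 to 108, with 5 lower without fish oil library 3 and 54 muscle genes without fish oil library 2. The covariate fit turned the sign of 9 of the 51 genes that rose outside the list, among them Rpl3l (-0.64), Hspb6 (-0.15), Ube2c (-0.23) and Tpm1 (-0.33), and the cause was not tested. The fatty acid synthesis median stayed between -0.54 and -0.32 and the cholesterol median between -0.45 and -0.26 over 24 alternatives without the covariate.

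By the numbers in the titles, same-numbered control and fish oil libraries did not deviate together, with correlations of -0.49 to 0.05, and no library correlated best with its own number, so the numbers were not taken to pair samples. The source name gives fish oil library 2 the number 3, and by it the pair with control library 3 had a correlation of 0.51. With the replicate number as a block within each age, 38 genes outside the muscle list passed, 36 of them also without the block, and 77 muscle genes rose. At this depth, 35 of the 51 genes that rose outside the list rest on fewer than 30 control counts.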

Other observations

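Gdf15 and Epdr1, secreted factors of brown fat, were measured near the detection floor in the control libraries. Gdf15, a stress-induced hormone, was at 0.224, 0.838 and 0.716 CPM in control and at 5.71, 1.88 and 1.60 CPM in fish oil libraries (log2 fold change 2.36, SE 0.811, edgeR adjusted p = 0.430). Epdr1, a secreted ependymin-related protein, was at 0.783, 1.05 and 0.239 CPM and at 4.37, 3.32 and 2.06 CPM (log2 fold change 2.20, SE 0.612, edgeR adjusted p = 0.165). Neither passed in the fit of all libraries (edgeR adjusted p = 0.0143 and 0.00267 with no filter on low counts), neither overlapped between groups, and both were lowest of the fish oil group in library 3, the library with the least muscle RNA of that group. The part of muscle RNA in these values was not tested.

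Insulin signalling and the stress response gave a few further separate groups. Pik3r1, the regulatory subunit of phosphoinositide 3-kinase, was at 164, 183 and 112 CPM in control and at 87.2, 101 and 78.2 CPM in fish oil libraries (log2 fold change -0.79, SE 0.36, edgeR adjusted p = 0.704). Atf4, the transcription factor of the integrated stress response, was at 43.2, 37.8 and 45.5 CPM and at 54.5, 56.2 and 62.2 CPM (log2 fold change 0.45, SE 0.155, edgeR adjusted p = 0.403). Aspg, an asparaginase, was at 39.6, 29.8 and 39.5 CPM and at 20.3, 28.9 and 26.0 CPM (log2 fold change -0.54, SE 0.201, edgeR adjusted p = 0.514). None of the 3 passed the threshold in the fit of all libraries. With no filter on low counts the edgeR adjusted p was 2.85e-06 for Pik3r1, 0.0292 for Aspg and 0.195 for Atf4.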
